A study of Mus musculus with 12 samples.

Results

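Of 23238 features measured on 12 mouse liver arrays, 154 (0.663%) were higher in livers without hepatocyte FoxO than in control livers in both feeding states. Control livers differed little between those states in these features, as the rule requires. Their median difference, refed minus fasted, was -0.03 over the 154, against 0.01 over all features. The leading members with a gene name were chaperones, folding factors and degradation machinery of the endoplasmic reticulum, and cytosolic heat-shock chaperones. A feature is 1 probe group of the array, and its deposited value is a log2 expression value. A member had every TKO value above every WT value within fasted and within refed arrays, a mean difference of at least 0.6 (log2) between TKO and WT in both states, and a difference under 0.6 in size between refed and fasted WT means. Members were thus chosen by the measured genotype differences and WT feeding differences themselves, and the genotype differences given here describe the members and carry no test.

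The TKO mice, labelled L-FoxO1,3,4, lacked FoxO1, FoxO3 and FoxO4 in hepatocytes, and the WT mice were their littermates. All mice had a mixed C57BL/6J and 129 background, and cohorts were matched for age and sex, with neither value given in the sources used here. The groups were TKO livers after 22 h of fasting, WT livers after 22 h of fasting, TKO livers after 4 h of refeeding and WT livers after 4 h of refeeding, with 3 arrays each. The driver of the hepatocyte-specific deletion is not given in the sources used here, and whole liver also holds cells in which FoxO was not deleted. Nothing in the labels states that arrays came from separate animals, so the p-values cover only how these particular samples varied, part of which can be technical.

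FoxO proteins are transcription factors that act in the nucleus when insulin is low and leave it when insulin signals through Akt. In liver they are known for raising genes of glucose production during fasting and for restraining lipid synthesis. The hepatocyte exports large amounts of plasma protein through the endoplasmic reticulum. When unfolded protein collects there, the sensors IRE1, ATF6 and PERK start the unfolded protein response, in which XBP1 and ATF6 raise chaperones and degradation factors. Unfolded protein in the cytosol is answered separately, by the heat-shock factor HSF1 and its chaperone targets.

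The 3 deleted genes were read first. Foxo1 had 9.18, 9.33 and 9.41 (log2) in fasted TKO livers, against 9.53, 9.65 and 9.48 in fasted WT livers, and 8.47, 8.35 and 8.91 in refed TKO livers, against 9.04, 9.02 and 8.84 in refed WT livers. The groups did not overlap in fasted livers and overlapped in refed livers. The log2 differences were -0.25 fasted and -0.39 refed for Foxo1, -0.14 and -0.13 for Foxo3, and -0.17 and 0.16 for Foxo4 (limma adjusted p from 0.235 to 0.921). Each feature summarises probes whose position relative to the deleted part is not given, so these values do not check the genotype labels. Any pair of arrays correlated at 0.967 to 0.989 across features, and refed TKO replicate 1 stood apart, with 0.976 as its highest. The title of this array is the only one with an added suffix, whose meaning the labels do not give. Markers of Kupffer cells and macrophages averaged 7.70 to 8.13 in fasted TKO arrays, against 7.95 to 8.36 in fasted WT arrays, and 7.68 to 8.03 in refed TKO arrays, against 8.05 to 8.48 in refed WT arrays. Of these 6 markers, Cd5l was the 1 called between the genotypes and was lower in TKO (adjusted p = 0.0478), and the part of these cells in the results below was not tested. In bulk liver, fewer cells of a type and less RNA per cell cannot be told apart. Hepatocyte markers averaged between 13.85 and 13.99 on all arrays. The stellate cell marker Lrat was called higher in TKO, with 0.65 and 0.68 (adjusted p = 0.05 as rounded, just inside the threshold), the 1 called of 7 stellate markers. None of the 8 marker lists held a member, and the other lists had median differences, fasted and refed, of 0.09 and -0.04 for stellate cells, -0.18 and -0.31 for endothelium, -0.05 and -0.01 for cholangiocytes, -0.40 and -0.26 for T and B cells, -0.05 and -0.56 for neutrophils and -0.25 and -0.25 for the 1 erythroid gene measured.

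Member differences were graded. Both genotype differences were at least 1 (log2) in 50 members and at least 2 in 6. In limma, 64 members were called higher in fasted TKO livers, where 0.697% of all features were, 16 in refed TKO livers, where 0.0732% were, and 143 over both states, where 2.05% were. Since the rule used these contrasts, the calls are a description. The median of the smaller difference was 0.87, a 1.82-fold difference. The member nearest to the bound had a smaller difference of 0.601, and the feature just outside had 0.5999. The WT feeding difference reached 0.531 in size among members, and the feature just outside had 0.602. That bound left out 9 features that met the rest of the rule, of which 7 were higher in refed than in fasted WT livers. With no such bound 163 features met the rule, so the bound narrowed the choice little. Among features raised in both states, a small WT feeding difference hardly sets members apart. The narrowest gap between the lowest TKO and the highest WT value was 0.0021 (log2), so the absence of overlap rested on very little for some members.

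**Figure D1:**
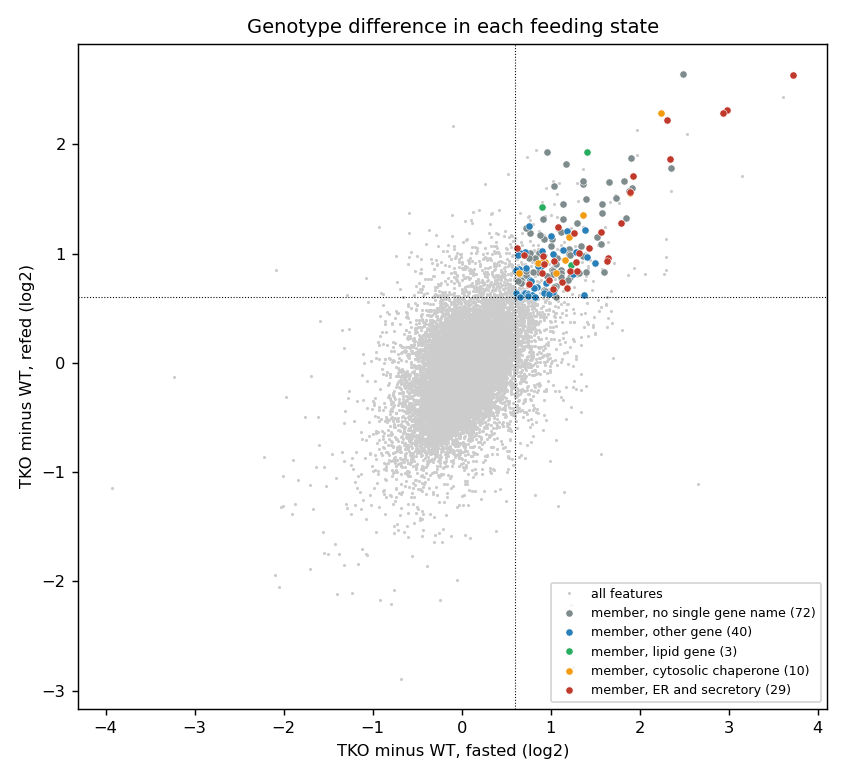
Each point is 1 feature, with the log2 difference between TKO and WT livers when fasted on the horizontal axis and when refed on the vertical axis. Members, coloured by group, lie above 0.6 on both axes (dotted lines). Those of the endoplasmic reticulum reach furthest on the fasted axis, with Sdf2l1 at 3.73 and 2.64, and 1 member without a single gene name also reaches 2.64 when refed.

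Among the 82 members with a single gene name, 29 belong to the endoplasmic reticulum, the secretory pathway or their stress response. The last of these covers Ddit3, a stress-induced factor. A further 10 are cytosolic chaperones or their partners, 3 act in lipid metabolism and 40 have other roles. This grouping was made after the values were seen. It covered members only, so no share of all named features in each group can be set beside these counts. Of the 25 named members with the largest smaller difference, 13 were of the first group, 4 of the second, 1 of the third and 7 of the last. The median difference of the 29 endoplasmic reticulum members was 1.29 fasted and 0.99 refed, and that of the 10 cytosolic members 1.11 and 0.93. Over all features these medians were 0.00 and -0.03.

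Sdf2l1 encodes a luminal factor that works with the chaperone BiP and is induced by unfolded protein. It had 11.32, 10.69 and 11.90 in fasted TKO livers, against 7.49, 7.71 and 7.53 in fasted WT livers (log2). After refeeding it had 10.01, 10.78 and 11.33 in refed TKO livers, against 8.96, 7.67 and 7.57 in refed WT livers. WT replicate 1 stood above the other refed WT livers, yet below every TKO liver, and TKO was 13.2-fold higher when fasted and 6.22-fold higher when refed. Hspa5 encodes BiP, the main Hsp70 chaperone of the lumen. It had 12.80, 12.37 and 13.13 in fasted TKO livers, against 10.87 ± 0.115 (mean, SD, n = 3) in fasted WT livers, and 12.17, 12.63 and 12.87 in refed TKO livers, against 11.24, 11.05 and 10.68 in refed WT livers. All 6 TKO livers were above all 6 WT livers, with 3.72-fold and 2.96-fold differences.

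Creld2, a luminal disulfide isomerase, had 12.00, 10.98 and 12.58 in fasted TKO livers, against 8.88, 9.17 and 8.70 in fasted WT livers. After refeeding Creld2 had 10.71, 11.78 and 11.75 in refed TKO livers, against 9.27, 9.27 and 8.84 in refed WT livers. The spread was wider in TKO (11.86 ± 0.808 fasted and 11.42 ± 0.608 refed, SD, n = 3 each) than in WT (8.92 ± 0.239 and 9.13 ± 0.248), but the genotypes did not overlap. Manf, a secreted factor that is retained in the lumen by BiP, had 10.61, 9.98 and 10.92 in fasted TKO livers, against 8.10, 8.46 and 8.04 in fasted WT livers, and 10.56, 10.24 and 10.37 in refed TKO livers, against 8.35, 8.24 and 7.92 in refed WT livers. Its 2.30 and 2.22 differences were near equal in both states. Hyou1, the large nucleotide exchange factor of BiP, had 11.22, 10.77 and 11.76 in fasted TKO livers, against 8.88, 9.07 and 8.78 in fasted WT livers, and 10.11, 10.89 and 11.02 in refed TKO livers, against 9.17, 8.79 and 8.46 in refed WT livers, again with no overlap. Hspa13, a microsomal Hsp70 relative, differed by 1.79 fasted and 1.28 refed, and Dnajb11, a BiP co-chaperone, by 1.64 fasted and 0.93 refed.

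The abundant folding enzymes differed by less. Hsp90b1, the lumenal Hsp90, averaged 12.64 ± 0.327 in fasted TKO and 11.43 ± 0.174 in fasted WT livers, and 12.46 ± 0.0607 in refed TKO and 11.62 ± 0.291 in refed WT livers (SD, n = 3 each). The protein disulfide isomerases Pdia4 and Pdia3 differed by 1.29 fasted and 0.84 refed and by 0.92 fasted and 0.90 refed. Dnajb9, a co-chaperone that restrains IRE1, differed by 0.69 fasted and 0.99 refed.

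Degradation from the endoplasmic reticulum was represented among members by Derl3, Syvn1 and Ubxn4. Derl3, a Derlin that helps move misfolded protein out of the lumen, had 9.93, 7.57 and 9.68 in fasted TKO livers, against 5.62, 5.85 and 6.77 in fasted WT livers, and 8.38, 9.39 and 8.86 in refed TKO livers, against 6.66, 6.40 and 6.62 in refed WT livers. Fasted TKO replicate 2 was the lowest TKO liver and lay above the highest fasted WT liver. Syvn1, the ubiquitin ligase of this pathway also called HRD1, had 10.04, 9.64 and 11.27 in fasted TKO livers, against 8.35, 8.45 and 8.37 in fasted WT livers, and 9.67, 9.86 and 10.67 in refed TKO livers, against 8.36, 8.46 and 8.26 in refed WT livers. The 6 WT livers lay close together, while fasted TKO replicate 3 was far above its group mates. Ubxn4, which recruits the extraction ATPase to the membrane, differed by 1.13 fasted and 0.74 refed. Other genes of this pathway were not members. Derl2 had 0.63 and 0.48 and was called over both states (limma adjusted p = 0.018). Derl1 (0.21 and 0.15), Sel1l (0.81 and 0.34), Edem1 (0.68 and 0.34) and Edem2 (0.18 and -0.32) were not called (adjusted p = 0.182, 0.0661, 0.0893 and 0.686).

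The sensor Ern1, which encodes IRE1 alpha, had 9.68, 9.59 and 9.87 in fasted TKO livers, against 9.07, 9.24 and 8.96 in fasted WT livers, and 9.74, 9.55 and 9.69 in refed TKO livers, against 8.63, 8.68 and 8.51 in refed WT livers. Refed WT livers were the lowest of the 4 groups and no genotypes overlapped, but its fasted difference of 0.63 was close to the bound. It was 0.59 after median centring and 0.57 after cyclic loess, so that Ern1 was no member under either scaling. Ddit3, the stress-induced factor CHOP, had 7.12, 7.17 and 8.63 in fasted TKO livers, against 6.83, 6.48 and 6.88 in fasted WT livers, and 7.54, 7.63 and 7.99 in refed TKO livers, against 6.77, 6.70 and 6.75 in refed WT livers. Fasted TKO replicate 3 was well above the other fasted TKO livers, which lay close to WT. Ddit3 was not called over both states (limma adjusted p = 0.0534), and its smaller difference, 0.91, was 0.42 without fasted TKO replicate 3.

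Translocation, glycosylation and transport genes made up the rest of this group. Slc35b1, a nucleotide transporter of the endoplasmic reticulum membrane, averaged 11.26 ± 0.172 in fasted TKO and 9.70 ± 0.298 in fasted WT livers (SD, n = 3 each). Sec23b, a coat component of vesicles that leave the endoplasmic reticulum, differed by 1.43 fasted and 1.05 refed, and Tmed3, a cargo receptor of the same traffic, by 1.31 fasted and 1.00 refed. Subunits or partners of the oligosaccharyl transferase, which attaches N-glycans, were represented by Ostc (1.08 fasted and 1.24 refed), Magt1 (0.98 fasted and 0.76 refed) and Ost4 (0.75 fasted and 0.72 refed), whose smaller difference was 0.38 without refed TKO replicate 1. Alg12, a mannosyltransferase that builds the glycan precursor, differed by 1.64 fasted and 0.96 refed. Spcs2 of the signal peptidase differed by 1.03 fasted and 0.93 refed, Mlec, a lectin of newly made glycoproteins, by 1.29 fasted and 0.93 refed, and Serp1, a translocon-associated stress protein, by 0.90 fasted and 0.82 refed. P4ha1, a collagen prolyl hydroxylase, differed by 1.26 fasted and 1.18 refed, Atp2a2, the calcium pump of this membrane, by 1.18 fasted and 0.68 refed, and Tmem167, a secretory pathway protein, by 1.02 fasted and 0.67 refed. A second feature of Mlec, the 1 other feature measured for any named member, differed by 1.41 fasted and 0.55 refed and so missed the rule in refed livers.

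**Figure D2:**
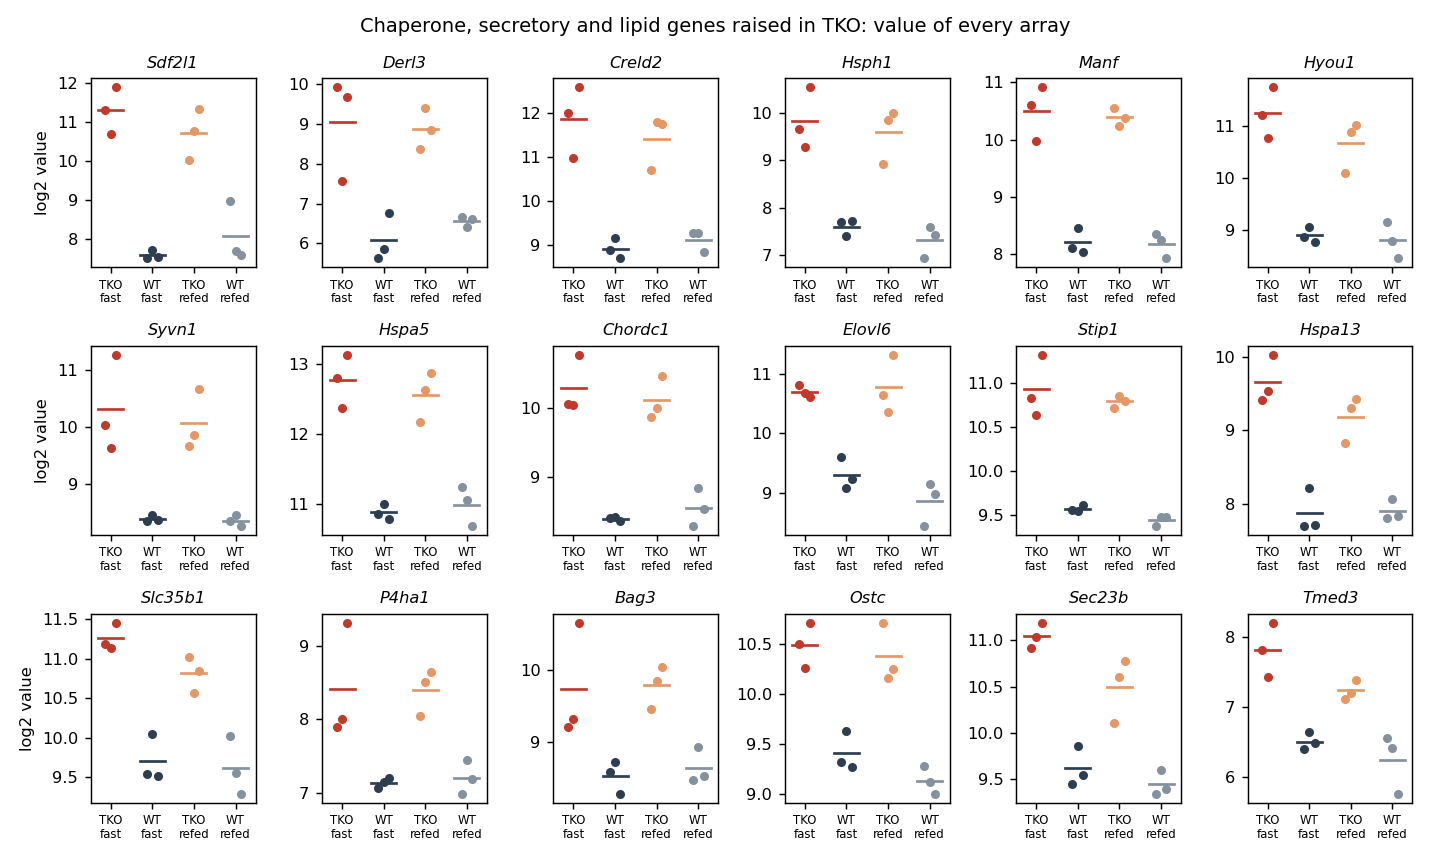
Log2 value of every array for the 18 chaperone, secretory and lipid genes among the 25 named members with the largest smaller difference, with TKO left of WT in each feeding state and lines at group means. In each panel every TKO point lies above every WT point of the same feeding state, as the rule requires, and TKO points are often wider apart than WT points.

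Promoters of these genes were set beside the values, because ATF6 and its cofactor NF-Y are known to bind the endoplasmic reticulum stress element (ERSE), which is CCAAT and, after 9 bases of any kind, CCACG. The 250 bases before each gene's start were searched on both strands in RefSeq promoters of GRCm38.p6, which held 68 of the 82 named member genes. The exact ERSE was found in 6 of the 24 endoplasmic reticulum members with a promoter (25%) and in 0 of the 10 cytosolic chaperones. It was found in 6 of all 68 named members with a promoter (8.82%) and in 14 of 11830 genes (0.118%) among those measured here by a single-gene feature. The endoplasmic reticulum group was formed after the values were seen. No share was computed for genes of this compartment that are not members. A match describes the letters and does not show that a site is used. The windows of 5 members are given to show where the element lies, 5′ to 3′ on the gene's strand, with capitals at each ERSE.
Hspa5, chr2:34771840-34772089, + strand: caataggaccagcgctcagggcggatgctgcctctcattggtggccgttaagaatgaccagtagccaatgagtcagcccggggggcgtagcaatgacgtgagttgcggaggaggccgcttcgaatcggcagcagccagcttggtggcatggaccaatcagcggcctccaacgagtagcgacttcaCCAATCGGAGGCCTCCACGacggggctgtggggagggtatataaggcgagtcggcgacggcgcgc
Hsp90b1, chr10:86705445-86705694, - strand: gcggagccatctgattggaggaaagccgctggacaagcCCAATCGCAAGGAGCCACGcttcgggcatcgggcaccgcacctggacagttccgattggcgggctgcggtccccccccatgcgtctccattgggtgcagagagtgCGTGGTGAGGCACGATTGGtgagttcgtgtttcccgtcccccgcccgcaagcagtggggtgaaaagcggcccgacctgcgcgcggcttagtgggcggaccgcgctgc
Creld2, chr15:88819396-88819645, + strand: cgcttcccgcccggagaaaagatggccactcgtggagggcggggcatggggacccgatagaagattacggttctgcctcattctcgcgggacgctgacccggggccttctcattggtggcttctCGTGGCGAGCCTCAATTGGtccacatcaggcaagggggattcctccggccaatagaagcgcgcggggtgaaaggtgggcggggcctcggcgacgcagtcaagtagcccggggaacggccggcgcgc
Derl3, chr10:75893148-75893397, + strand: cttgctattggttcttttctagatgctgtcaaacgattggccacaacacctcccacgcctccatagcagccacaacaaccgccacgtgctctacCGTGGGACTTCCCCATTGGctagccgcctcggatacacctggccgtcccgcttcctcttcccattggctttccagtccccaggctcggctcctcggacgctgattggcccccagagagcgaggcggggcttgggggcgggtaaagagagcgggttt
Syvn1, chr19:6046326-6046575, + strand: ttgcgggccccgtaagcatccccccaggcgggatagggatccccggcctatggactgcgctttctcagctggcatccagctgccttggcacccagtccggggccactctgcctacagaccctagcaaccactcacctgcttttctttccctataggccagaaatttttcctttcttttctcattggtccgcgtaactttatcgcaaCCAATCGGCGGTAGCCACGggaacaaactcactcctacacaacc

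Hsp90b1 carried the element at 2 places and the others at 1. The sixth was Alg12, whose window lies head to head with that of Creld2 and shares 173 bases with it, including the same element read from the other strand. These neighbouring genes were both members, with Creld2 differing by 2.94 fasted and 2.29 refed and Alg12 by 1.64 fasted and 0.96 refed. Of the 8 measured genes that have the element but are not members, 2 were called higher in TKO over both states, where 2.05% of all features were. These were Pdia6 (1.23 fasted and 0.80 refed, adjusted p = 0.045) and Calr (0.88 and 0.42, adjusted p = 0.0256), which encode a disulfide isomerase and the lectin chaperone calreticulin. The other 6 were not called and ranged down to Acacb, an acetyl-CoA carboxylase, with -0.28 and -0.77.

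Other motifs were rare in these windows. A second stress element, ATTGG and CCACG with 1 base between them, which shares CCACG with the ERSE, was in 0 of 68 member promoters and in 0.0507% of those of measured genes. TGACGTG, the core of the XBP1 and ATF6 element, was in 3 (4.41%), against 2.35%, GTAAACA, a FoxO core, in 3 (4.41%), against 3.14%, and the heat-shock element, GAA, TTC and GAA with 2 bases between neighbours, in 0, against 0.456%. Only exact matches to these letters were counted, so a count of 0 does not show that looser forms of an element are absent.

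The wider unfolded protein response was listed from textbook knowledge, after the members were known, as 40 genes of which 36 were measured. Of these, 14 were members, 20 had no overlap in both states with TKO above WT, where 2.46% of all features did, and 19 were called higher over both states in limma, where 2.05% of all features were. No listed gene was called lower, against 1.88% of all features. These contrasts chose the members, so the counts only describe the list, whose median differences were 0.69 fasted and 0.46 refed. Outside the rule, Xbp1, the main factor downstream of IRE1, differed by 0.68 and 0.56 (adjusted p = 0.0136 over both states), and Sec61a1, the translocation channel, by 0.72 and 0.47 (adjusted p = 0.00699). Of the list's genes of the PERK branch, Eif2ak3, which encodes PERK, had 0.61 and 0.00, Atf4 0.20 and 0.46, Ddit3 0.91 and 0.98, Ppp1r15a -0.17 and -0.17 and Chac1 -0.60 and -0.40. None of these 5 was called over both states (adjusted p = 0.279, 0.130, 0.0534, 0.613 and 0.0924). Trib3, also known as a target of this branch and listed here under insulin signalling, had -0.60 and -0.50 and was called lower (adjusted p = 0.0219). Herpud1, a degradation factor induced by several branches, had 0.04 and -0.03 (adjusted p = 0.994).

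The cytosolic chaperones were headed by Hsph1, which encodes Hsp105, a nucleotide exchange factor of Hsp70. It had 9.67, 9.29 and 10.56 in fasted TKO livers, against 7.69, 7.39 and 7.71 in fasted WT livers, and 8.92, 9.86 and 10.01 in refed TKO livers, against 6.92, 7.59 and 7.42 in refed WT livers. TKO livers were 4.74-fold and 4.87-fold higher, without overlap. Stip1, the adaptor that hands clients between Hsp70 and Hsp90, had 10.83, 10.63 and 11.32 in fasted TKO livers, against 9.55, 9.54 and 9.61 in fasted WT livers, and 10.72, 10.85 and 10.80 in refed TKO livers, against 9.37, 9.47 and 9.47 in refed WT livers. Its WT values were tight within each state, with SDs of 0.0391 fasted and 0.0537 refed. Chordc1, an Hsp90 co-chaperone, had 10.06, 10.05 and 10.77 in fasted TKO livers, against 8.41, 8.42 and 8.37 in fasted WT livers, and averaged 10.11 ± 0.313 in refed TKO and 8.56 ± 0.275 in refed WT livers (SD, n = 3 each).

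Bag3, an Hsp70 partner in selective autophagy, differed by 1.21 fasted and 1.15 refed, with fasted TKO replicate 3 at 10.66 and the other fasted TKO livers at 9.21 and 9.32. The Hsp40 proteins Dnajb1 and Dnajb2 differed by 1.16 fasted and 0.94 refed and by 0.90 fasted and 0.92 refed. Fkbp4, an immunophilin of Hsp90 complexes, differed by 1.06 fasted and 0.82 refed, and Cacybp, a partner of ubiquitin ligases and Hsp90, by 0.94 fasted and 0.92 refed. Zfand2a, a stress-induced proteasome partner, differed by 0.86 fasted and 0.91 refed, and Hspa4l, an Hsp110 relative, by 0.64 fasted and 0.82 refed. In a heat-shock list of 23 genes written after the values were seen, 16 were measured, 9 were members and 10 were called higher over both states, where 2.05% of all features were, with 0 called lower, where 1.88% were. Hsp90aa1, the inducible cytosolic Hsp90, differed by 0.13 and -0.46 (adjusted p = 0.698), and Hspa1a, an inducible Hsp70, by 0.77 and 0.52 (adjusted p = 0.161). Both features were dim. Hsp90aa1 lay between 3.98 and 5.10 on all arrays and Hspa1a between 3.16 and 4.05 in WT livers. The median WT signal over all features was 5.83, so these 2 results do not show that the genes were unchanged.

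Lipid genes were fewer. Elovl6, which lengthens newly made palmitate, had 10.82, 10.68 and 10.62 in fasted TKO livers, against 9.60, 9.07 and 9.23 in fasted WT livers, and 10.65, 10.36 and 11.33 in refed TKO livers, against 8.43, 9.15 and 8.97 in refed WT livers. Here the refed difference, 1.93, was the larger, with 1.41 when fasted. Fasn, the fatty acid synthase, had 11.02, 10.90 and 11.24 in fasted TKO livers, against 10.74, 10.02 and 9.70 in fasted WT livers, and 11.17, 11.21 and 11.23 in refed TKO livers, against 10.45, 9.60 and 9.26 in refed WT livers. WT livers were widely spread, with SDs of 0.534 fasted and 0.615 refed, against 0.173 in fasted TKO and 0.0306 in refed TKO livers, and the gap between the lowest fasted TKO value, 10.90, and the highest fasted WT value, 10.74, was small. Acsl4, which activates arachidonic acid, differed by 1.23 fasted and 0.90 refed.

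Elovl6 and Fasn were 2 of the 11 measured genes of a lipogenesis list. The list had median differences of 0.08 fasted and 0.31 refed. Of its genes, 6 were above 0 in both states, where 27.7% of all features were. In limma 3 were called higher over both states, where 2.05% of all features were, and 0 lower, where 1.88% were. In that list Acaca, an acetyl-CoA carboxylase, was also called (0.48 and 0.84, adjusted p = 0.0138), Acly, which supplies acetyl-CoA, had 0.44 and 0.76 (adjusted p = 0.0633), and Srebf1, a lipogenic transcription factor, -0.07 and -0.34 (adjusted p = 0.703). Scd1 had -0.28 and -0.47 (adjusted p = 0.143), and Acacb -0.28 and -0.77 (adjusted p = 0.13). None of the other 10 metabolic, signalling and cell-cycle lists held a member, with 1 to 17 genes measured in each. Their median differences, fasted and refed, were -0.85 and -0.61 for gluconeogenesis, 0.30 and -0.01 for the 1 glycolysis gene measured, 0.25 and 0.88 for cholesterol synthesis, -0.34 and -0.56 for fatty acid oxidation and -0.30 and -0.50 for insulin signalling. They were -0.14 and 0.12 for bile acid genes, 0.02 and 0.09 for xenobiotic enzymes, 0.12 and -0.35 for acute phase genes and -0.02 and -0.10 for the cell cycle. The FoxO target list had median differences of -0.30 and -0.29, and 3 of its 17 measured genes, Txnip, Insr and Pnpla2, were called lower over both states, where 1.88% of all features were, and 0 higher, where 2.05% were. In fatty acid oxidation 2 of 6 measured genes, Ppara and Cpt1a, were called lower (adjusted p = 0.0131 and 0.0326), and in insulin signalling 2 of 5, Insr and Trib3 (adjusted p = 0.0134 and 0.0219). None of the other lists in this paragraph beyond lipogenesis and these held a called gene. For refed minus fasted in WT livers, list medians were small for gluconeogenesis (-0.14), FoxO target (-0.16) and lipogenesis genes (-0.07). They were larger in size for bile acid (-0.45), cholesterol synthesis (-0.43) and acute phase genes (1.08). A small WT feeding difference was thus not particular to members.

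Among the 40 members with other roles, the 7 largest by the smaller difference were Slc39a10, a zinc importer (1.39 fasted and 1.22 refed), Cdk2ap2, a partner of the kinase Cdk2 (1.19 fasted and 1.21 refed), Rpl10a, a ribosomal protein (1.14 fasted and 1.03 refed), Inhba, the activin beta A subunit (1.29 fasted and 1.02 refed), Ppp1r10, a nuclear phosphatase subunit (1.01 fasted and 1.16 refed), Cstf3, an mRNA 3′ end processing factor (1.03 fasted and 1.00 refed), and Bcl3, an NF-kappa-B cofactor (1.41 fasted and 0.97 refed). Ribosomal protein genes have many near-identical copies, so the Rpl10a value is uncertain. Others, named after their values were seen, included Gfpt1, the first enzyme of hexosamine synthesis (1.25 fasted and 0.81 refed), the chemokine gene Cxcl11 (0.76 fasted and 1.25 refed), Srm, spermidine synthase (0.95 fasted and 0.73 refed), Psma1 of the proteasome (0.71 fasted and 0.64 refed), Uba6, a ubiquitin-activating enzyme (0.71 fasted and 1.02 refed), and the transcription regulators Id3 (0.91 fasted and 1.02 refed) and Crem (0.65 fasted and 0.86 refed). The differences of the 40 ranged from 0.61 to 1.5 fasted and from 0.60 to 1.25 refed.

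The other 72 members have no single gene name here. The probe table did not list 69 of them, and 3 carried several gene symbols. One of the 3 was second of all members, with 5.65, 6.71 and 6.64 in fasted TKO livers, against 3.70, 3.89 and 3.97 in fasted WT livers, and 7.17, 6.28 and 6.08 in refed TKO livers, against 4.04, 3.99 and 3.58 in refed WT livers. Differences of the 72 ranged from 0.60 to 2.48 fasted and from 0.60 to 2.64 refed.

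Among fasted TKO livers most members had the same array on top. The rule did not use this order, but it used the group mean, so an array with high values favours entry. The shares below are therefore a description, and 137 of the 154 were still members without fasted TKO replicate 3. Fasted TKO replicate 3 was the highest of its group in 114 of 154 members (74.0%), where it was the highest in 31.1% of all features. For the 29 endoplasmic reticulum members it was the highest in 26 and for the 10 cytosolic chaperones in 10. The median excess over the fasted WT mean was 1.30, 0.97 and 1.59 for endoplasmic reticulum members in fasted TKO replicates 1, 2 and 3, and 0.99, 0.84 and 1.53 for cytosolic chaperones. In refed TKO livers the members did not share 1 order, since replicate 1 was the highest in 63 of 154 and the lowest in 70. Over all features it was the highest in 34.9% and the lowest in 9823 of 23238, so the members resembled all features here. Among the chaperone groups, refed replicate 1 was the lowest for 21 of 29 and for 10 of 10 of these genes. Refed replicate 3 was the highest for 22 and 5, where it was the highest in 23.8% of all features. Refed TKO medians were 0.88, 0.97 and 1.23 for endoplasmic reticulum members and 0.72, 1.20 and 1.22 for cytosolic chaperones. In WT arrays the medians stayed between -0.12 and 0.13 and between -0.21 and 0.09. The 69 members absent from the probe table followed another order in refed livers, with replicate 1 the highest in 38 of them (55.1%), where it was the highest in 34.9% of all features.

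**Figure D3:**
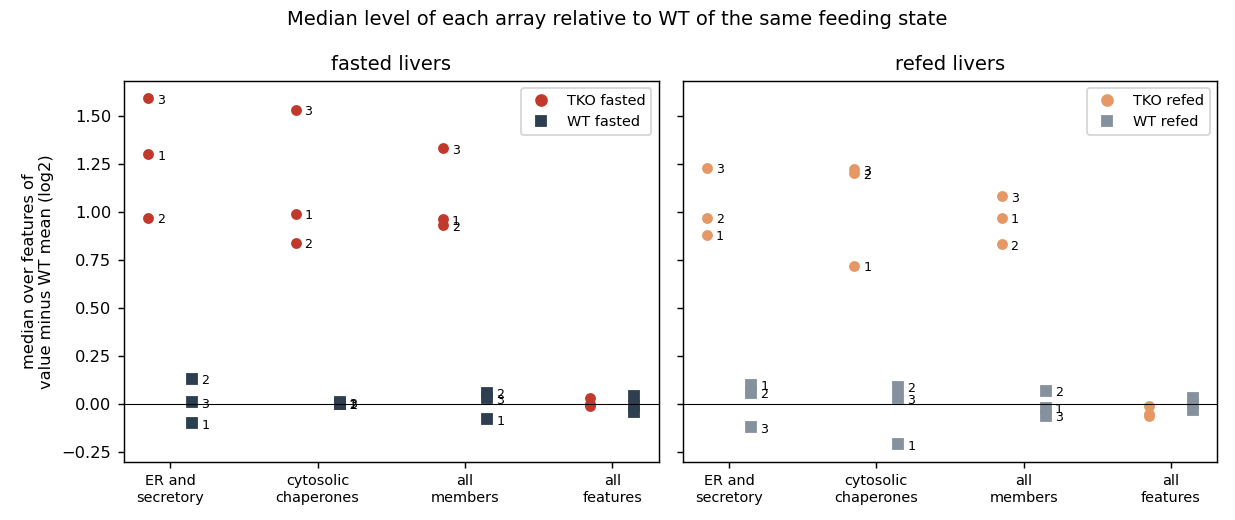
Each point is 1 array, and its height is the median over a group of features of the log2 value minus the WT mean of the same feeding state, with replicate numbers beside the points. TKO arrays lie between 0.72 and 1.59 for the member groups, with fasted replicate 3 on top in each, while all features together stay near 0.

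The difference between refed and fasted TKO livers was not itself a criterion, but it is the sum of the WT feeding difference and the change in genotype difference, both of which the rule limits through the same arrays. Its values are therefore a description. It was called in 0 of 154 members, as in 0% of all features (limma, smallest adjusted p among members 0.396), and 10 members (6.49%) had an unadjusted p under 0.05, where 9.59% of all features did. Of these 10, 9 were lower in refed livers (5.84% of members), where 7.93% of all features were. The median difference, refed minus fasted, was -0.14 over members and -0.05 over all features, and it was negative in 114 members (74.0%), where 59.7% of all features were negative. With the rule applied to the other 11 arrays, the member median was -0.06 without fasted TKO replicate 3, 0.00 without refed TKO replicate 2 and -0.23 without fasted TKO replicate 2. It lay within 0.6 of 0 in 149 members (96.8%) and in 95.5% of all features. Refed lay below fasted TKO livers without overlap in 11 members (7.14%), where 9.33% of all features did, and above them in 2 (1.3%), where 3.5% did.

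Within members, the endoplasmic reticulum group had a median of -0.25 and was negative in 26 of 29 genes. This median was -0.08 without fasted TKO replicate 3, -0.14 without refed TKO replicate 1 and -0.40 without fasted TKO replicate 2, so it depended on single livers. Alg12 had the most negative value of the group, -0.78 (SE 0.263), and Sec23b had -0.55 (SE 0.177). Among other genes Entpd7, a nucleotide phosphatase of intracellular membranes, had -0.61 (SE 0.158). The difference between genotype effects in the refed and in the fasted state was also called in 0 of 154 members and 0% of all features (smallest adjusted p among members 0.924), with 5 members (3.25%) and 4.88% of all features at an unadjusted p under 0.05. The difference was negative in 4 of these 5 (2.6% of members), where 3.79% of all features were. Members had to pass the same bound in both states, which limits this difference as well, and these counts do not show that the effects were equal.

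The genotype difference was then read between arrays that the rule had not seen. In each of 18 pairs, 1 TKO and 1 WT array of the same feeding state were left out together, the rule was applied to the other 10 arrays, and the features it found were compared between the left-out arrays alone. In the 9 fasted pairs, 142 to 202 features were found, and the left-out TKO array was the higher in 89.6% to 95.1% of them, against 44.9% to 58.7% of all features. The median difference was 0.70 to 1.36 (log2), and every pair with fasted TKO replicate 3 was at 1.20 or above. In the 9 refed pairs, 155 to 288 features were found, the left-out TKO array was the higher in 68.8% to 93.1%, against 41.6% to 53.2% of all features, and the median difference was 0.33 to 0.99. The lowest of these values came from refed TKO replicate 2 with refed WT replicate 2. The pairs share arrays and features, so they are not independent of each other and carry no p-value, and these medians were mostly below the member medians of 1.04 fasted and 0.93 refed, which come from the arrays that chose the members.

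**Figure D4:**
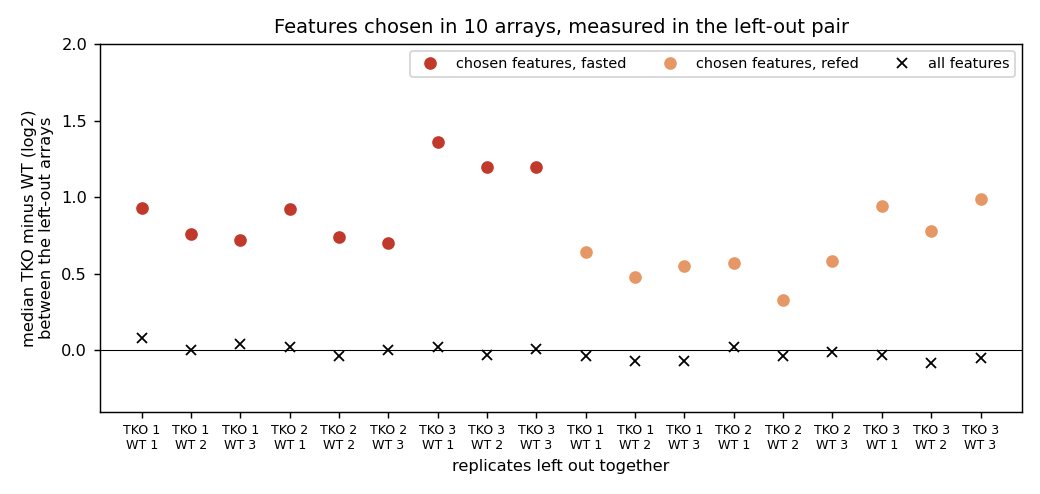
Each point is the median log2 difference between a left-out TKO and a left-out WT array over features chosen in the other 10 arrays, for 9 fasted and 9 refed pairs, and crosses give the median over all features. Points run from 0.70 to 1.36 in fasted pairs and from 0.33 to 0.99 in refed pairs, and crosses lie between -0.08 and 0.08.

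Starting signal was read as the mean of the 6 WT arrays. Members had a median of 7.40 and a range from 3.12 to 11.64 (log2), and all features a median of 5.83. When all features were split by this signal into 4 bins of equal size, 14, 23, 48 and 69 members fell into the bins from dim to bright. The mirrored rule, which takes features lower in TKO in both states, found 98 features with a median WT signal of 9.05, of which 0, 1, 24 and 73 fell into these bins. Signals of different features depend on their probes, so these values do not rank genes by expression. Members that the probe table gave 1 gene name had a median WT signal of 8.42, and those that it did not name 6.55, where all features of these kinds had 6.38 and 4.86.

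**Figure D5:**
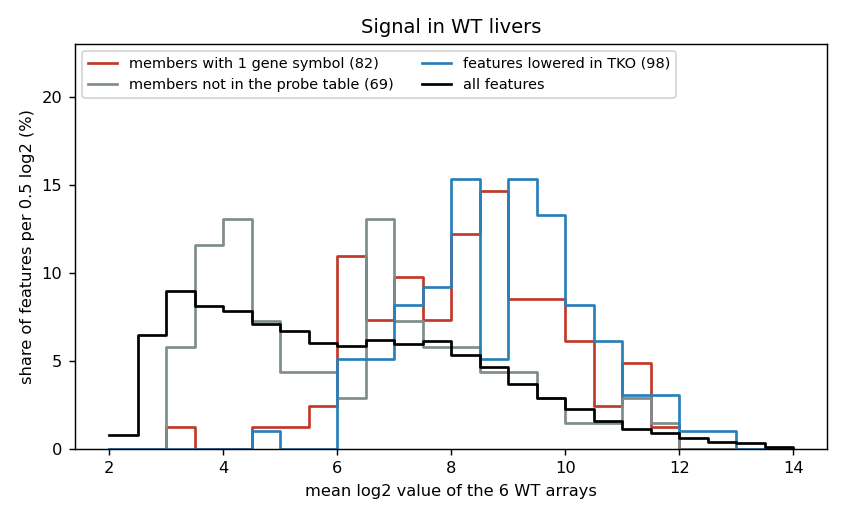
Share of features, in percent per 0.5 log2, by their mean value in the 6 WT arrays, for named members, members absent from the probe table, features lowered in TKO and all features. Lowered features gather on the bright side (median 9.05), while members absent from the probe table reach down to 3.12.

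IDs of members ran from 4306220 to 7019867, within the range of all features (4305140 to 7023908). Members with IDs below the first ID of the probe table numbered 66 (42.9%), where 28.3% of all features and 6.12% of the lowered features had such IDs. In order of ID, the features that stood next to a member without being one had median genotype differences of 0.03 fasted and -0.03 refed. Of the members, 2 stood next to another member.

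The spread within a group was larger among members than among all features. Median SDs were 0.307 in fasted TKO, 0.203 in fasted WT, 0.322 in refed TKO and 0.218 in refed WT livers (n = 3 each), against 0.169, 0.168, 0.214 and 0.162 over all features. The summed variance was larger in TKO than in WT in 120 members (77.9%) and in 57.7% of all features. The 98 lowered features showed a like share, 73.5%.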

How the data were processed

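Liver RNA of 12 samples was measured on 1-colour arrays after biotin labelling. RMA and Partek produced the values, per the submitters' processing notes, with no version or filter stated there. The deposited values are on the log2 scale, as read from their range of 1.84 to 14.2 and array medians of 5.79 to 5.90, and they were used without further normalization. The number of arrays limits the precision. Gene names came from the platform's annotation, which listed 15928 of 23238 features (14939 with 1 symbol, 989 with several); 14884 of the single symbols matched RefSeq by Entrez ID, and 0 needed updating. Where a listed gene had several features, the brightest over all arrays was used.

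The members and lists were chosen with earlier results of these data known. Genes were named as the 25 single-gene members with the largest smaller genotype difference, plus members of the listed pathways; the grouping by role, the unfolded protein response and heat-shock lists and further genes were added after seeing values. Tests used limma 3.58.1 in R 4.3.3 (lmFit, eBayes, 1 mean per group, 12 arrays, 8 residual degrees of freedom), two-sided, with Benjamini-Hochberg adjustment over all features and a threshold of 0.05. The fit and the rule were tested on simulated data. Alternatives were other scalings, a filter on dim features, other thresholds, other limma settings each array left out, and 1 TKO and 1 WT array left out together, the last added after seeing the data. The labels name no batch or date, so a batch that follows genotype cannot be told apart from it.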

Additional observations from a re-analysis of the deposited data

How the results depend on the processing

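The limits of these results are the 3 arrays per group, the unknown signal over background, and members chosen on the differences described. No paired analysis was possible because the labels give no replicate numbers that groups share. With any 1 array left out, the 154 members numbered 153 to 236, the most without refed TKO replicate 2. They numbered 321 with a genotype difference of at least 0.4, 96 with at least 0.8, 318 where groups may overlap, and 98 under the mirrored rule, which was added after seeing the data. Of the 154, 140 were found under both median centring and cyclic loess, and 83 in all 12 runs with 1 array left out. The 29 endoplasmic reticulum members numbered 26 to 29 with 1 array left out and 28 under either scaling, and the 10 cytosolic chaperones numbered 9 to 10 and 10; these counts were added after seeing the data. The count of members called between refed and fasted TKO livers, and that for the interaction, stayed at 0 under all alternatives run. The median WT signal of 7.40 was 7.21 after median centring, 7.79 without the 30% dimmest features, 7.69 at a difference of 0.4, 7.80 with a WT feeding bound of 0.3, 7.23 without that bound, and 6.93 to 7.65 with 1 array left out. The median refed minus fasted difference in TKO, -0.14, ranged from -0.23 to 0.00 with 1 array left out and was -0.05 after cyclic loess. For features found in 11 arrays, the left-out array lay on the side of its genotype in 97.3% at the median (87.1% to 100%), but the opposite genotype's arrays had helped to choose these features, so a high share is built in; with 1 TKO and 1 WT array left out together, an alternative added after seeing the data, the TKO array was the higher in 90.3% at the median of 18 pairs. Of 931 recomputed differences of 49 named genes, 0 changed sign and the lowest was 0.38. Without overlap between genotypes, leaving out 1 array cannot change a sign. Other thresholds and the filter on dim features leave the values as they are. The absence of sign changes is thus built in, except under median centring and cyclic loess. The causes of these shifts were not tested.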
